A study of Mus musculus with 8 samples.

Results

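The genes Gas5, Zfas1, Snhg1, Snhg3, Snhg4, Snhg5, Snhg6, Snhg8, Snhg12 and Snhg15, whose introns carry small nucleolar RNAs (snoRNAs), were examined in the ventricles of E11.5 mouse embryos (embryonic day 11.5). They were taken by symbol from a table of 52778 features, and all 10 were found. The study holds 4 control libraries and 4 libraries homozygous for an Atf4 allele with 7 base pairs removed from exon 3 by CRISPR/Cas9, a frameshift that removes ATF4 protein and leaves the polyadenylation signal in place. The labels give the control genotype as C57BL/6 WT, the mutants' treatment field as ATF4 global knockout, and one batch for all libraries, and the design text calls the 4 samples of each genotype biological replicates. The genotype field of the mutant samples also reads C57BL/6 WT, so groups follow the sample titles. The protocols name both a poly(A) kit and ribosomal RNA depletion, and the extraction text names cultured cortical neurons. Litter, embryo sex and pooling of hearts are not given. The allele is global, so any cell type of the dissected tissue carries it.

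A snoRNA host gene is transcribed and spliced like an mRNA, and its snoRNAs are cut out of the introns. Box C/D snoRNAs guide 2′-O-methylation and box H/ACA snoRNAs guide pseudouridylation of ribosomal RNA, and a few act in its cleavage. The exons of many noncoding hosts hold only short reading frames. Once ribosomes reach them they are degraded by nonsense-mediated decay, the pathway that removes transcripts with an early stop codon, and their steady level is known to rise when translation or this decay is blocked. Gas5, named for its accumulation in growth-arrested cells, is the classic case. Several hosts also start with a run of pyrimidines (C or T), the feature through which mTOR controls translation of ribosomal protein mRNAs. ATF4 is a transcription factor that is made when eIF2alpha is phosphorylated and general translation is low.

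Transcript starts are shown first because the pyrimidine run is read from them. Windows came from the RefSeq promoter table for GRCm38.p6, with 250 bases before and 50 after each start. For 8 of the 10 genes 9 windows were examined. No window of Snhg4 or Snhg6 was examined, so the counts below leave both genes out. Each line below gives the 20 bases before and the 20 from the start, with the unbroken run of C and T from the start in capitals.
Gas5, second start: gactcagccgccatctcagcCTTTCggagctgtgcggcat
Snhg8: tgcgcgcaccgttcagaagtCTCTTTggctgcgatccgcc
Snhg12: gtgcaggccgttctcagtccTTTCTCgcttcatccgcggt
Snhg1: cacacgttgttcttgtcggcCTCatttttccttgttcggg
Zfas1: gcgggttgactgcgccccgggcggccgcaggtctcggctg
A run of at least 5 such bases was present in 3 of the 9 windows, those of Snhg8, Snhg12 and the second Gas5 start. Among all 32851 windows of that length in the table, 4.44% had one. Zfas1 had none at the annotated start, and Snhg1 had 3 bases. The starts not shown, those of Snhg3, Snhg5 and Snhg15 and the first Gas5 start at base 161034601, also had none.

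The same windows were searched on both strands for TGATGNAA, the core of the composite C/EBP-ATF element through which ATF4 acts, and for TGACGTCA, the palindromic cyclic AMP response element bound by ATF and CREB family proteins. None of the 9 windows held TGATGNAA, which was found in 3.97% of all windows. TGACGTCA was found in 2 of the 9, against 1.79% of all windows, beginning 46 bases before the second Gas5 start and 88 bases before the Snhg15 start. These are matches of letters, and the binding of any factor was not measured. Both windows are shown because they are the only ones among the 9 with this element, which is in capitals.
Gas5, chr1:161034916-161035215, plus strand: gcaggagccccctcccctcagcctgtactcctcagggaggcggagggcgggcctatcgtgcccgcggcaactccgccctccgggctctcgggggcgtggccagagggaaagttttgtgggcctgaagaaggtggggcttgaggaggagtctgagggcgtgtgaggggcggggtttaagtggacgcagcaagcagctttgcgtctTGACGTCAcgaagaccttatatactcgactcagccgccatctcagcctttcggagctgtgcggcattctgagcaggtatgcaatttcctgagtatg
Snhg15, chr11:6528711-6529010, minus strand: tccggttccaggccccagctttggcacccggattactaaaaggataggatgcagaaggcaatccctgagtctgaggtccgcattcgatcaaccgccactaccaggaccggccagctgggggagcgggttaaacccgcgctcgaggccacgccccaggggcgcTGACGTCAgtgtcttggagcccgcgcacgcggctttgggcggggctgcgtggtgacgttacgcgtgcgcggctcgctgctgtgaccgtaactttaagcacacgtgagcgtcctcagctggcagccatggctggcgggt

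Levels are TPM, a measure of transcript abundance that divides by gene length and by the total of the library, so that genes can be compared with one another. TPM keeps no read depth, so the spread between libraries is the only measure of error. The values of all features summed to 923473 to 949762 TPM per library. The source label is ventricular heart. All 11 of 11 ventricular cardiomyocyte markers were tested, and their summed level was 41096 to 43364 TPM in control hearts and 40135 to 43154 TPM in mutant hearts. Of 5 atrial markers 4 were tested, and the list summed to 7413 to 7886 TPM in the controls and 7592 to 8012 TPM in the mutants. Most of that sum was Myl7 and Myl4, with means of 3479 and 4188 TPM, while Sln averaged 0.354 TPM. How specific either list is to its chamber was not tested, so the sums do not compare ventricular with atrial tissue. Of 9 neuronal markers 8 averaged under 1 TPM, and Neurod6 was listed at 0 in every library. All 5 hepatocyte markers averaged under 1 TPM, and 3 of 5 macrophage markers did. The macrophage list summed to 4.84 to 10.6 TPM in control hearts and 3.45 to 5.66 TPM in mutant hearts. Among its genes, Cx3cr1 held 1.08 to 1.87 TPM in the controls and 0.387 to 0.720 TPM in the mutants, without overlap. It was named after its values were seen. Cx3cr1 passed the expression filter given below only through the controls, which favours groups that do not overlap. The 3.68% of all genes tested that did not overlap is therefore not a like comparison. Csf1r overlapped, at 2.22 to 4.80 TPM in the controls and 2.15 to 3.14 TPM in the mutants. So did C1qa, at 0.517 to 2.96 and 0.515 to 1.52 TPM, and Adgre1 and Fcgr1. No macrophage marker passed the adjusted threshold given below. Erythroid genes summed to 3971 to 6733 TPM in control hearts and 3714 to 5221 TPM in mutant hearts. Their part in the values below was not tested on its own. A refit with TPM rescaled without mitochondrial and haemoglobin genes together is given below. In such bulk tissue, fewer cells of a type and less RNA per cell cannot be told apart.

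No difference between the genotypes passed the test for any of the 10 host genes. The count past an adjusted p of 0.05 was 0 (limma on log2(TPM + 1), two-sided, Benjamini-Hochberg over 15545 genes), against 0.0386% of all genes tested (0.00643% higher and 0.0322% lower than in controls). The count was also 0 at an unadjusted p below 0.05, against 6.1% of all genes (3.45% for lower values alone), and in 0 of the 10 did the control and mutant values fail to overlap, against 3.68% of all genes. All 10 passed the expression filter of 1 TPM in at least 4 libraries. The log2 fold changes, mutant against control, ran from -0.21 for Snhg15 to 0.020 for Snhg12, with a median of -0.035 beside -0.0033 for all genes tested. They were below 0 in 7 of the 10 and above 0 in 3, where 51.8% of all genes lay below 0. Of the 3 above 0, Snhg4 and Snhg5 turned negative when TPM was rescaled without mitochondrial and haemoglobin genes, and Snhg12 did so with weights per library. For 8 of the 10 the whole 95% interval lay within 0.3 of no change on the log2 scale, a factor of 1.23. Gas5 and Snhg15 had wider intervals.

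**Figure D1:**
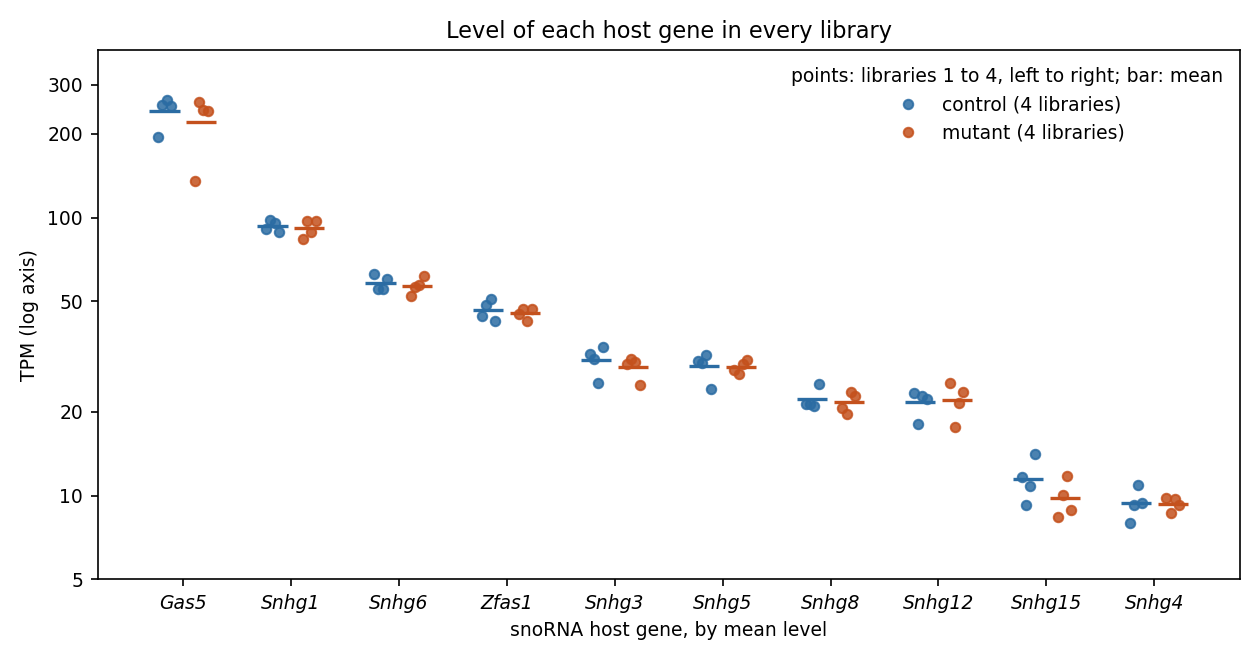
TPM on a log axis of the 10 host genes, ordered by mean level, with 1 point per library (controls blue, mutants orange, replicates 1 to 4 from left to right) and a bar at the mean of each group. The groups overlap for all 10 genes, and Gas5 in mutant replicate 1, at 135 TPM, lies below the other libraries.

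Mean levels over the 8 libraries ran from 231 TPM for Gas5 to 9.37 TPM for Snhg4. Gas5 lay above 96.6% of the genes tested, followed by Snhg1, Snhg6 and Zfas1. The ranges over 8 libraries of these neighbours in the order did not overlap, and Zfas1 in turn did not overlap with Snhg3. The lowest Snhg6 value, 52.3 TPM, was only just above the highest Zfas1 value of 51.1 TPM. The ranges of Snhg3 and Snhg5 overlapped, as did those of Snhg8 and Snhg12. Those of Snhg5 and Snhg8 overlapped only through control replicate 4, at 24.1 and 25.2 TPM. In every other library Snhg5 was above Snhg8. Snhg12 lay above Snhg15 in every library, and Snhg15 and Snhg4, the lowest, overlapped.

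Gas5 (chromosome 1, bases 161034601 to 161038539 of GRCm38, plus strand) hosts box C/D snoRNAs. It was measured at 195, 254, 265 and 253 TPM in control replicates 1 to 4 and at 135, 259.6, 244 and 242 TPM in mutant replicates 1 to 4. Apart from the first replicate of each genotype, the libraries stood close together, and the highest mutant value lay inside the control range. The means were 241 ± 31.8 TPM in control hearts and 220.2 ± 57.3 TPM in mutant hearts (SD, n = 4 each). In limma the log2 fold change was -0.17, with a 95% interval from -0.60 to 0.27 (limma, adjusted p of 0.942). Its sign rested on 1 library: without mutant replicate 1 the log2 fold change was 0.051. The spread of Gas5 within groups, an SD of 0.34 on the log2 scale, exceeded that of 97.1% of the 11627 tested genes with a mean of at least 5 TPM.

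Zfas1 (chromosome 2, bases 167062934 to 167065862, plus strand) is transcribed from the 5′ end of Znfx1 in the opposite direction and hosts 3 annotated snoRNAs. The controls held 44.4, 48.6, 51.1 and 42.4 TPM and the mutants 44.9, 47.0, 42.4 and 46.9 TPM. All mutant values lay between the extremes of the controls except replicate 3, which matched the lowest control to within rounding. The log2 fold change of -0.038 had an interval from -0.18 to 0.10 (limma, adjusted p of 0.962). In contrast with Gas5, the within-group SD of Zfas1 was 0.097 on the log2 scale, near the median of 0.0865 for genes of at least 5 TPM.

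Among the other box C/D hosts, Snhg1 (chromosome 19, bases 8723487 to 8726326, plus strand) held 91.2, 98.1, 95.8 and 88.6 TPM in control hearts and 84.0, 96.9, 88.6 and 97.5 TPM in mutant hearts. Mutant replicate 1 was the lowest library, and the other mutants ran from 88.6 to 97.5 TPM beside 88.6 to 98.1 TPM in the controls. The log2 fold change was -0.028 (interval -0.15 to 0.096, limma, adjusted p of 0.970). Snhg6 (chromosome 1, bases 9942025 to 9944118, minus strand) held 62.5, 55.2, 55.4 and 60.2 TPM in control hearts and 52.3, 56.4, 57.0 and 61.6 TPM in mutant hearts. Its log2 fold change was -0.038 (interval -0.17 to 0.094, limma, adjusted p of 0.960). Again mutant replicate 1 was the lowest library and the other mutants lay within the control range. Snhg5 (chromosome 9, bases 88521052 to 88522897, minus strand), the host of Snord50a and Snord50b, held 30.5, 30.0, 32.01 and 24.1 TPM in control hearts and 28.3, 27.4, 29.8 and 30.9 TPM in mutant hearts. Its low library was control replicate 4, and the mutants all lay inside the control range. The log2 fold change was 0.0028 (interval -0.18 to 0.19, limma, adjusted p of 0.998).

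Among the hosts of box H/ACA snoRNAs, Snhg3 (chromosome 4, bases 132351933 to 132353686, minus strand) carries Snora73a and Snora73b, which act in the processing of small-subunit ribosomal RNA. It held 32.3, 31.1, 25.5 and 34.3 TPM in control hearts and 29.7, 30.9, 30.3 and 25.1 TPM in mutant hearts, so that each genotype had 1 low library, control replicate 3 and mutant replicate 4. The log2 fold change was -0.081 (interval -0.29 to 0.13, limma, adjusted p of 0.942). Snhg4 (chromosome 18, bases 35553410 to 35558316, plus strand), the host of Snora74a, held 7.98, 9.26, 10.9 and 9.42 TPM in control hearts and 9.80, 8.69, 9.71 and 9.22 TPM in mutant hearts. The mutants lay inside the control range, and the interval of the log2 fold change, 0.00048, ran from -0.20 to 0.20 (limma, adjusted p of 0.9998). Snhg8 (chromosome 3, bases 123507552 to 123508336, minus strand), the host of Snora24, held 21.4, 21.4, 21.0 and 25.2 TPM in control hearts and 20.7, 19.6, 23.6 and 22.9 TPM in mutant hearts. Control replicate 4 was high and the genotypes were otherwise mixed, with a log2 fold change of -0.033 (interval -0.20 to 0.14, limma, adjusted p of 0.975).

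Snhg12 (chromosome 4, bases 132308678 to 132311024, plus strand) carries both kinds, Snora16a, Snora44 and Snora61 beside Snord99. It held 23.5, 18.1, 22.7 and 22.2 TPM in control hearts and 25.4, 17.7, 21.5 and 23.6 TPM in mutant hearts, and replicate 2 was the low library of both genotypes. The log2 fold change was 0.020 (interval -0.23 to 0.28, limma, adjusted p of 0.992). Snhg15 (chromosome 11, bases 6525591 to 6528760, minus strand), the host of Snora9 and known from other cells as a short-lived transcript that responds to stress, held 11.7, 9.29, 10.8 and 14.1 TPM in control hearts and 8.36, 10.1, 11.8 and 8.91 TPM in mutant hearts. In 2 mutants the value was below every control, and the other 2 lay inside the control range. Its log2 fold change of -0.21 was the lowest of the 10, with an interval from -0.50 to 0.088 and an unadjusted p of 0.148 (limma, adjusted p of 0.867). With 1 library left out it ran from -0.11, without control replicate 4, to -0.29, without control replicate 2 or mutant replicate 3. In those last 2 fits the unadjusted p was 0.0464 and 0.0492, and the limma adjusted p 0.934 and 0.871.

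The low values were not spread evenly over the libraries. Mutant replicate 1 was the lowest of the 8 libraries for 4 of the 10 genes, Gas5, Snhg1, Snhg6 and Snhg15, and the highest for Snhg12. Control replicate 3 was the highest for 4 genes. By genotype, the lowest library was a control only for Snhg4 and Snhg5, and the highest was a mutant only for Snhg12. How such tallies, by library or by genotype, fall over all genes was not counted, and the 10 genes share libraries and TPM scaling. The summed level of the 10 genes was 565 ± 30.6 TPM in control hearts and 535 ± 64.7 TPM in mutant hearts (SD, n = 4 each), and Gas5 made up much of it. Without Gas5 the other 9 genes summed to 321 to 326 TPM in control hearts and to 303, 315, 315 and 327 TPM in mutant replicates 1 to 4. The control range lay inside the mutant range, but mutant replicates 1 to 3 were below every control. The means of these sums were 323 ± 2.63 TPM in control hearts and 315 ± 9.46 TPM in mutant hearts (SD, n = 4 each). This difference was not tested.

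**Figure D2:**
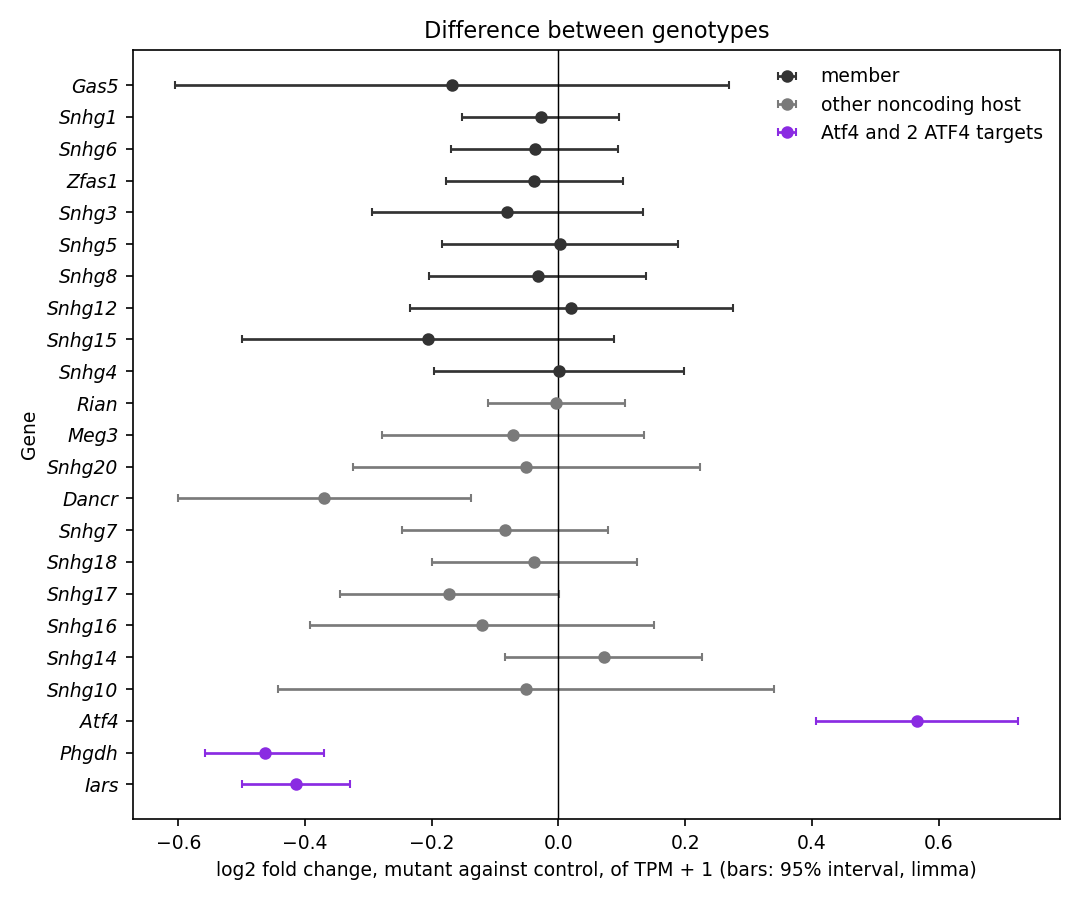
Log2 fold change of TPM + 1, mutant against control, with 95% intervals from limma, for the 10 host genes, the 10 other noncoding hosts that were tested, Atf4 and a pair of genes that ATF4 drives. The intervals of the 10 host genes all cover 0, while those of Atf4, Phgdh, Iars and the other host Dancr do not.

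The snoRNAs themselves appear in the table as separate short features. Within the 10 genes, on the same strand, 31 features are annotated as snoRNA in RefSeq, and Snhg4 also contains the miRNA feature Mir1949. Libraries of long RNA are not made to recover mature snoRNAs, and how reads of a feature nested in a longer gene were divided is not stated, so these values describe reads assigned to the snoRNA's place in the gene. Of the 31, 30 were expressed enough to be tested, and Snord87 inside Snhg6 was listed at 0 in every library. None of the 30 passed the adjusted threshold (a count of 0), and 1 had an unadjusted p below 0.05, against 6.1% of all genes tested. That feature, LOC115489078 inside Snhg1, averaged 16.4 ± 2.41 TPM in control hearts and 12.3 ± 1.57 TPM in mutant hearts (SD, n = 4 each), giving a log2 fold change of -0.38 (limma, adjusted p of 0.780). It was singled out after its values were seen, and its groups overlapped. The median log2 fold change of the 30 was -0.081, with 19 below and 11 above 0, where 51.8% of all genes lay below 0. They were noisier than their hosts: the median within-group SD was 0.29 on the log2 scale, against 0.13 for the 10 host genes.

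The snoRNA features inside Gas5 all had a log2 fold change below 0 (8 of 8, median -0.18), where 51.8% of all genes lay below 0. They lie in 1 host gene and share libraries, so they are not 8 independent observations. Of them 0 passed the threshold, against 0.0386% of all genes tested. In 0 did the groups fail to overlap, against 3.68% of all genes. Some of the features split the libraries of both genotypes. The 5 features nearest the Gas5 start were the steadier ones, with within-group SDs of 0.072 to 0.28 on the log2 scale, against 1.65 to 1.71 for the other 3. LOC115487677, which has the coordinates of Snord78 in GENCODE M21, held 54.9 to 72.8 TPM in control hearts and 55.6 to 64.3 TPM in mutant hearts. The 3 features nearest the end took either a high or a low level, and their sequences are given here with the C box TGATGA and the D box CTGA, the motifs of the box C/D class, in capitals, as GENCODE M21 annotates them on the plus strand of GRCm38.
LOC115487645 (Snord80), chr1:161037601-161037681: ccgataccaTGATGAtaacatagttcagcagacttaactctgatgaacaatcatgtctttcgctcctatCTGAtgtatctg
Snord47, chr1:161038082-161038158: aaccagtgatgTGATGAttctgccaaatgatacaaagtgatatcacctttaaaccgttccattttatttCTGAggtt
LOC115487640 (Gm25789), chr1:161038308-161038383: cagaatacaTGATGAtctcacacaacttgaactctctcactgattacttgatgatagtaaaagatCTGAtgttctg
LOC115487645 held 0.602, 15.05, 16.5 and 11.3 TPM in control replicates 1 to 4 and 20.7, 10.9, 0.912 and 1.90 TPM in mutant replicates 1 to 4. Snord47, which the table lists over a slightly shorter span, held 1.31, 17.4, 19.9 and 20.4 TPM in control hearts and 22.7, 16.0, 0.856 and 1.81 TPM in mutant hearts. LOC115487640 held 0.482, 16.5, 17.3 and 10.7 TPM in control hearts and 0.550, 16.3, 0.698 and 0.835 TPM in mutant hearts. All 3 were low in control replicate 1 and in mutant replicates 3 and 4, and LOC115487640 was also low in mutant replicate 1. The limma intervals of their log2 fold changes were correspondingly wide, from -3.67 to 0.65 for LOC115487640, and none passed the threshold. The 4 libraries in which LOC115487640 was low were also the 4 with the lowest Gas5, at 135, 195, 242 and 244 TPM, beside 253 to 265 TPM in the others. LOC115487645 and Snord47 were instead at their highest in mutant replicate 1, the library with the lowest Gas5.

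**Figure D3:**
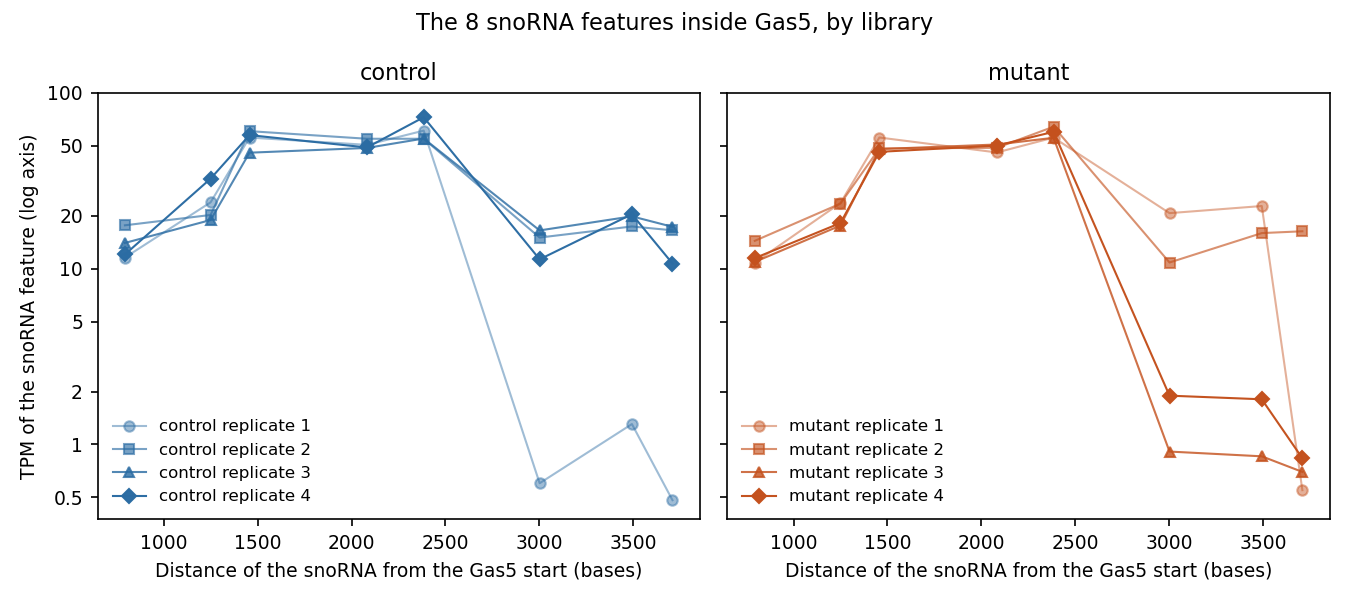
TPM on a log axis of the 8 snoRNA features inside Gas5 against their distance in bases from the Gas5 start, 1 line per library, controls on the left and mutants on the right. The first 5 features run together in all 8 libraries, and the last 3 split into a level above 10 TPM and a level below 2 TPM in both genotypes.

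Genes that overlap or adjoin the hosts were compared next, since strand handling is not stated and reads from both strands could then be mixed. Gas5 shares 264 bases with Zbtb37 on the opposite strand. Zbtb37, a zinc finger gene, held 8.68 to 9.92 TPM in the controls but 15.5 and 16.5 TPM in mutant replicates 2 and 4, with 8.61 and 8.72 TPM in the other 2. Its log2 fold change of 0.32 was not beyond the spread (limma, adjusted p of 0.865). The part of Zbtb37 in the Gas5 values was not tested. Znfx1 overlaps Zfas1 by 82 bases and had a log2 fold change of -0.050 (limma, adjusted p of 0.960). Mcmdc2, which overlaps Snhg6 over 1582 bases on the opposite strand, was too low to be tested, at 0.929 ± 0.0852 TPM in control hearts and 0.686 ± 0.0855 TPM in mutant hearts (SD, n = 4 each), and its groups did not overlap. It was named after its values were seen.

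Slc3a2, which encodes the heavy chain of several amino acid transporters and is a known ATF4 target, starts 117 bases from Snhg1 and is transcribed away from it. It held 38.1, 37.9, 39.5 and 37.5 TPM in control hearts and 39.4, 31.3, 37.6 and 34.9 TPM in mutant hearts. In 2 mutants it was below every control, and in the other 2 it was not, with a log2 fold change of -0.098 (interval -0.24 to 0.049, limma, adjusted p of 0.888). Neither gene of this divergent pair passed the threshold. Other genes within 5000 bases of a host were Phactr4 beside Snhg3, Matr3 beside Snhg4 and Trnau1ap beside Snhg12. Their log2 fold changes were -0.034, 0.058 and -0.078, with a limma adjusted p of at least 0.841.

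Other noncoding hosts of snoRNAs were a list of 12 genes, of which 10 were tested and 0 passed the threshold. Their median log2 fold change was -0.062, with 9 below and 1 above 0, where 51.8% of all genes lay below 0. The lowest was Dancr, a host known for restraining differentiation of progenitor cells, at 23.0, 24.6, 17.6 and 19.4 TPM in control hearts and 16.3, 17.8, 14.8 and 15.3 TPM in mutant hearts. In 3 of the 4 mutants Dancr was below every control, and mutant replicate 2 overlapped the lowest control. The means of 21.2 ± 3.21 and 16.0 ± 1.33 TPM (SD, n = 4 each) differed by a log2 fold change of -0.37 (interval -0.60 to -0.14). The unadjusted p was 0.00544 and the adjusted p 0.720 (limma), so the difference did not pass over all genes.

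Protein-coding hosts, most of them genes of the translation machinery, were 41 genes, all tested, with 0 past the threshold and a median log2 fold change of 0.0096. Nop56, a core protein of box C/D particles that itself hosts snoRNAs, had the smallest p, at 124 ± 4.05 TPM in control hearts and 117 ± 2.12 TPM in mutant hearts (SD, n = 4 each), giving a log2 fold change of -0.082 (limma, adjusted p of 0.809). It was also the leading gene of the 18 snoRNP proteins and assembly factors, of which 0 passed and whose median was 0.018. Of 20 mRNAs with a terminal oligopyrimidine start, ribosomal proteins left out, 0 passed. Their median was 0.012 and their range ran from -0.037 to 0.067. Npm1, for the nucleolar protein nucleophosmin, had the smallest p among them, with a log2 fold change of 0.063 (limma, adjusted p of 0.845).

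The factors of nonsense-mediated decay, 21 genes with UPF, SMG and exon junction proteins, also gave 0 calls, with a median log2 fold change of 0.026. Gspt1, for the release factor eRF3a, led them at 0.083 (limma, adjusted p of 0.821). Among 25 transcripts known as targets of this decay, 1 passed, Atf4 itself, and the median was 0.017. Of the other 24, Atf3, Sat1 and Srsf6 had an unadjusted p below 0.05, against 6.1% of all genes tested. They were named after their values were seen, with log2 fold changes of -0.29, 0.30 and -0.072. Their limma adjusted p was at least 0.742.

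The same libraries did show differences elsewhere. Atf4, the targeted gene, was higher in the mutants, at 166 ± 15.1 TPM against 112 ± 8.07 TPM (SD, n = 4 each), giving a log2 fold change of 0.57 (interval 0.41 to 0.72, limma, adjusted p of 0.0430). Its transcript level does not test the loss of the protein. Of 39 tested ATF4 target genes, a list compiled with earlier results of these data known, 5 fell and 0 rose past the threshold, and the median was -0.16. Phgdh, for the first enzyme of serine synthesis, had a log2 fold change of -0.46 (limma, adjusted p of 0.00883), and Iars, for the isoleucyl-tRNA synthetase, one of -0.41 (limma, adjusted p of 0.00883). Aldh1l2, which encodes a mitochondrial folate enzyme, and Cars, which charges tRNA with cysteine, had log2 fold changes of -0.45 and -0.59 (limma, adjusted p of 0.0430 and 0.0420). With 1 library left out the log2 fold changes stayed close, from 0.51 to 0.62 for Atf4, -0.48 to -0.44 for Phgdh, -0.43 to -0.39 for Iars, -0.63 to -0.56 for Cars and -0.48 to -0.42 for Aldh1l2, but calls were lost. The 5 ATF4 targets became 0 without control replicate 2, 3 or 4, 1 without control replicate 1, 2 without mutant replicate 1, 2 or 4 and 3 without mutant replicate 3. Atf4 itself passed only in the fit without mutant replicate 4 among those that left out 1 library, and its adjusted p was otherwise 0.101 or more in those fits.

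**Figure D4:**
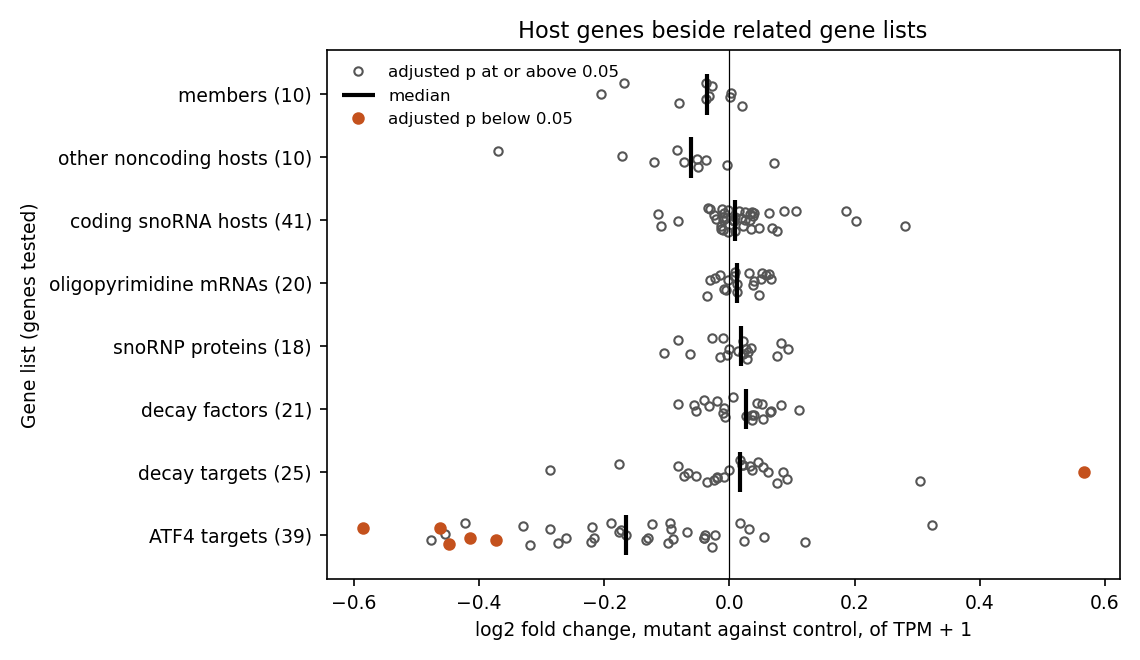
Log2 fold change of TPM + 1, mutant against control, of each tested gene in the 10 host genes and 7 related lists, with filled points for an adjusted p below 0.05 and a line at each median. The host genes and the lists around them cluster near 0, and the filled points are the 5 ATF4 targets and Atf4.

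The genes whose levels followed Gas5 most closely over the 8 libraries, among 11626 others with a mean of at least 5 TPM, were Sec11c, Rab29, Bin1, Fancf and Nr2c1. Pearson's r of log2(TPM + 1) with Gas5 ran from 0.963 for Sec11c to 0.911 for Nr2c1. Sec11c, a subunit of the signal peptidase, held 23.1 TPM in mutant replicate 1 and 30.0 to 35.0 TPM in the other libraries, so it shared the low library of Gas5. Rab29, Bin1, Fancf and Nr2c1 were also lowest in mutant replicate 1, at 4.09, 9.08, 4.83 and 7.06 TPM. How far r with Gas5 rests on that library was not tested. For Zfas1 the closest were Rnf185, Dgke, Acap1, Cracr2b and Sirt6, with r from 0.959 to 0.900. These values are the highest of many over 8 libraries that also share their TPM scaling, and are given as a description. No host gene was among the 5 closest to Gas5 or to Zfas1.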

How the data were processed

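Transcript levels of 8 ventricular heart libraries, 4 per genotype, were read from the TPM table deposited by the authors. The submitters' processing notes name FastQC, Trim Galore 0.6.7, HISAT2 2.2.1, StringTie 2.2.1, featureCounts and DESeq2 and the builds GRCm38 and mm10, without role or order. Which program gave the TPM, the annotation, the strand setting and the handling of reads shared by features are not given in the sources used here. TPM keeps no depth.

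Values were analysed as log2(TPM + 1), so fold changes of low genes are understated. Genes that reached 1 TPM in 4 or more libraries (15545) were fitted in limma 3.58.1 (R 4.3.3) without covariates, with variances following mean expression, two-sided p-values and Benjamini-Hochberg adjustment at 0.05. The fit was tested on simulated data. Python 3.11.15 and pandas 2.3.3 were used for counts and sequences. Positions count from 1.

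The genes and lists were chosen with earlier results of these data known. Named are the 10 hosts, Atf4, features inside or within 5000 bases of a host with a mean of at least 1 TPM, up to 4 called genes per list or the one with the smallest p, and the 5 genes closest to Gas5 and Zfas1. One feature that the rule names is not reported here. Alternatives were a pseudocount of 0.1, no filter or a filter at 5 TPM, median-of-ratios and quantile scaling, TPM rescaled without mitochondrial and haemoglobin genes or without features under 300 bases, a fit with the replicate number as a block, one with weights per library, one without the variance trend, and each library left out in turn.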

Additional observations from a re-analysis of the deposited data

Results flagged for a closer look

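Across 56 features named by the rule above or lying inside a host, 112 groups of 4 libraries were examined for 1 library standing far outside the other 3, judged by its distance from the closest of them relative to the full spread. This was found 7 times, where chance at the 5% rate of the test gives 5.6, and the features share libraries.

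Gas5 read 135 TPM in mutant replicate 1, below the 242 to 259.6 TPM of the remaining mutants. Snhg8 read 25.2 TPM in control replicate 4, above the 21.0 to 21.4 TPM of its group. Inside Gas5, Snord47 read 1.31 TPM in control replicate 1, below 17.4 to 20.4 TPM, and LOC115487640 read 16.3 TPM in mutant replicate 2, above 0.550 to 0.835 TPM. Gm23201, a snoRNA feature inside Zfas1, read 14.7 TPM in control replicate 4, above 11.4 to 11.9 TPM. LOC115489084, a snoRNA feature inside Snhg1, read 14.5 TPM in control replicate 2, above 10.2 to 10.7 TPM. Cars read 14.7 TPM in control replicate 3, below 16.3 to 16.5 TPM.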

How the results depend on the processing

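In 180 refits of a host gene (10 genes, 18 alternatives) 0 passed the threshold, and the lowest adjusted p was 0.818. Directions changed in 19 of the 180, in 8 of the 10 genes, all but Snhg3 and Snhg15. With 1 library left out, the log2 fold change ranged from -0.27 to 0.051 for Gas5, -0.082 to 0.0057 for Zfas1, -0.058 to 0.013 for Snhg1, -0.17 to -0.015 for Snhg3, -0.067 to 0.068 for Snhg4, -0.083 to 0.049 for Snhg5, -0.076 to 0.00075 for Snhg6, -0.073 to 0.026 for Snhg8, -0.059 to 0.12 for Snhg12 and -0.29 to -0.11 for Snhg15, and for neighbouring features from -0.079 to 0.013 for Znfx1, -0.082 to 0.016 for Phactr4 and -1.30 to 0.071 for LOC115487645. Rescaling without mitochondrial and haemoglobin genes turned Snhg4 to -0.0044 and Snhg5 to -0.0022, and weights per library turned Snhg12 to -0.00091. The other hosts, coding and noncoding, the oligopyrimidine mRNAs, the snoRNP proteins, the decay factors and the snoRNA features inside hosts kept 0 calls in every alternative. The snoRNA features, a count added after the data were seen, have no value once features under 300 bases are left out.

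Outside the hosts, the log2 fold changes of Atf4, Phgdh, Iars, Cars and Aldh1l2 kept their direction in all 18 alternatives, while counts of calls moved. Without a filter, without a variance trend and with the replicate block, the count was 0 for all genes (from 6), 0 for ATF4 targets (from 5) and 0 for decay targets (from 1, Atf4). Decay targets also gave 0 with quantile normalization and with rescaling without mitochondrial and haemoglobin genes. With 1 library left out the counts ranged from 0 to 3 for all genes, 0 to 3 for ATF4 targets and 0 to 1 for decay targets. The cause was not tested. Over all tested genes, replicate numbers did not pair the libraries: correlations of deviations ran from -0.082 to 0.035 for equal numbers and from -0.054 to 0.057 for unequal ones. Under the replicate block the lowest adjusted p of a host was 0.886. Single hosts differed in how the block acted. The standard error of the log2 fold change was 0.0889 with it and 0.194 without it for Gas5. The limma unadjusted p of Gas5 was 0.105 and 0.409. For Snhg12 the standard errors were 0.0551 and 0.113. They were also smaller with the block for Snhg1 and Snhg8, but larger for Zfas1, Snhg3, Snhg4, Snhg5, Snhg6 and Snhg15.

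The depth behind the values is unknown.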
